A study of Homo sapiens with 8 samples.

Results

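Nucleolar ribosome assembly genes encode the proteins that transcribe ribosomal RNA and build it into ribosomal subunits. They were chosen as a fixed list of 46 genes, read from acRIP libraries, in which an antibody against N4-acetylcytidine (ac4C) recovers fragments of poly(A)-selected RNA. Of the 46 genes, 26 had at least 1 of the deposited peak intervals assigned to them, 45 peaks in all, out of 9097 genes and 31395 peaks in the whole series. Only peaks that touched a single protein-coding gene were used, and the value of a gene is the sum over such peaks. The libraries comprised 143B sgNAT10 with 143B NC as its control, and HOS sgNAT10 with HOS NC as its control, at 1 library each. By its form the label sgNAT10 names a guide RNA against NAT10, and the kind of edit is not given. Both are human osteosarcoma cell lines, and 143B was derived from HOS. The labels give no guide sequence, treatment or time, and do not say whether the edited cells were 1 clone. Input libraries were not used here, so a difference in acRIP counts mixes RNA level with ac4C enrichment, and in such bulk libraries fewer cells with a transcript and less of it per cell cannot be told apart.

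Ribosome assembly starts in the nucleolus, where RNA polymerase I (Pol I) makes a long precursor of ribosomal RNA. Box C/D and box H/ACA particles, each a guide RNA with a small set of proteins, methylate the precursor and convert uridine to pseudouridine, while assembly factors fold and cut it into the small and the large subunit. NAT10 is itself a nucleolar enzyme, and writes ac4C into 18S ribosomal RNA, the RNA of the small subunit, and into some transfer RNAs. MYC is known as a driver of many genes of this pathway, and E-boxes (CACGTG) in their promoters are among the sites that MYC and related factors bind.

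A motif that the selection of these genes did not use was common in their promoters. In RefSeq promoter windows (GRCh38.p14, 250 bases before to 50 after each start), which were at hand for 40 of the 46 genes, CACGTG occurred in 20 genes (50%), against 12.6% of the 5109 tested genes with a window and 10.9% of 15843 protein-coding genes. In 16 of the 20 genes the motif began within 40 bases of the start. The motif reads the same on both strands. A stretch for at least 1 gene of each assembly step that had both a peak and an E-box is shown 5′ to 3′ on the strand of the gene, with the E-box in capitals, because it is the motif that 20 of the 40 of the genes with a window held.
DDX21, chr10:68956596-68956641, + strand: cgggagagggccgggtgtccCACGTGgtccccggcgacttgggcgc
FBL, chr19:39846348-39846393, − strand: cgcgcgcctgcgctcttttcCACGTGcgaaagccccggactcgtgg
RRP9, chr3:51941884-51941929, − strand: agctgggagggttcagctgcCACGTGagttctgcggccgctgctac
GAR1, chr4:109815773-109815811, + strand: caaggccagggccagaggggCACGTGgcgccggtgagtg
NAT10, chr11:34105594-34105639, + strand: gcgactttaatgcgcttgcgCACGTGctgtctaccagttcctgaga
MRTO4, chr1:19251799-19251844, + strand: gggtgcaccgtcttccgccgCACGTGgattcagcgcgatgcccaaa
The E-box began 31 bases before the start of DDX21, 15 before that of NAT10 and 5 before that of RRP9. It began at base 7 of the FBL transcript, base 15 of MRTO4 and base 32 of GAR1. These starts are those of the promoter windows. For DDX21 and GAR1 they lie inside the gene span that was used for peak positions.

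The ETS core CCGGAAG, searched on both strands, occurred in 15 of the 40 genes (37.5%), against 18.2% of tested genes, and the TATA core TATAAA in 1 of 40 (2.5%), against 10.7%. Overlaps between motifs were not removed. Among 107 further ribosome assembly genes with a window, 28 (26.2%) held an E-box and 47 (43.9%) the ETS core. The 13 genes with both a peak and an E-box had a median log2 shift of 0.20 in 143B and of -1.14 in HOS. The 9 genes with a peak and a window without one had -0.87 and -1.12. Of those 9, only NPM1, DDX10 and DDX56 had a peak within 500 bp of a 3′ end. Such peaks were more common among the genes with an E-box, and most were higher in 143B. The parts of motif and peak position in these medians were not tested. A motif match is a description of the letters and was not tested for binding.

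Totals over all peaks ranged from 20107718 to 24785306 counts per library, and cover peaks only, so they are not the sequencing depth. The rRNA block on chromosome 21 took 34.0% of counts in 143B sgNAT10, 42.6% in 143B NC, 42.5% in HOS sgNAT10 and 60.3% in HOS NC. Protein-coding genes took 9.72% in 143B sgNAT10, 10.8% in 143B NC, 15.7% in HOS sgNAT10 and 10.5% in HOS NC. The 143B library labelled sgNAT10 stood apart, with Spearman correlations across peaks of 0.583 to 0.718 with the other libraries, against 0.803 to 0.865 among those. Of 9 mesenchymal markers 5 had a peak, VIM among them, and COL1A1, COL1A2, THY1 and FN1 had none. Of 5 epithelial markers 3 had a peak (CDH1, KRT8, KRT18), of 4 haematopoietic markers 1 and of 3 endothelial markers 1. Summed counts of the mesenchymal list were 8018 in 143B sgNAT10, 10524 in 143B NC, 22225 in HOS sgNAT10 and 18479 in HOS NC, and those of the epithelial list 2513, 1277, 2492 and 2191 in the same libraries. The sums hide members that go opposite ways in HOS: VIM had 21284 counts in HOS sgNAT10 and 16614 in HOS NC, against 431 and 1231 for SPARC and 211 and 495 for CD44. CDH1 had 812 counts in HOS sgNAT10 and 5 in HOS NC, while KRT8 had 460 and 675 and KRT18 1220 and 1511. Their part in the results was not tested.

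NAT10 (Gene ID 55226) checks the labels only in part. Its single peak lay 101 bp from the 3′ end of the gene (chr11:34146656-34146807), and the position cut by the guide was not given. It had 130 counts in 143B sgNAT10 and 65 in 143B NC, and 63 in HOS sgNAT10 and 180 in HOS NC. NAT10 counts were thus higher in the 143B library labelled sgNAT10 and lower in the HOS one, so every direction below is that of a library as labelled. Normalised counts (CPM, relative to library size with TMM factors) were 4.63 against 3.27 in 143B and 2.74 against 9.97 in HOS. The log2 shift, sgNAT10 over NC, was 0.50 in 143B (0.06 to 0.95) and -1.85 in HOS (-2.30 to -1.44), where intervals, here and throughout, are 95% intervals for counting error only.

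In HOS, nearly every ribosome assembly gene with a peak had fewer acRIP counts in the library labelled sgNAT10, while in 143B the genes were split. Of the 26 genes, 25 were lower in HOS sgNAT10 than in HOS NC (background: 48.9% of all 8107 gene sums tested) and 16 were lower by 2-fold or more (background 13%). The HOS median was -1.13, against 0.03 over all gene sums tested. In 143B 14 genes were higher (background 56.6%) and 12 lower (background 43.4%), with a median of 0.09, against 0.18 over all gene sums. That split depends on the scaling between libraries: 9 genes were higher and 17 lower with TMM factors over all peaks, 19 and 7 with library totals alone, and 20 and 6 with totals over protein-coding genes. Relative to the median of all gene sums under the same scaling, the median of the 26 genes lay between -0.09 and -0.08 in 143B and between -1.16 and -1.14 in HOS under all 8 scalings run. A scaling adds nearly the same amount to every shift of a line, so this closeness follows from arithmetic and is no check. NOC4L alone was lower in 143B and higher in HOS (1 of 26, background 21.9%), with a HOS shift that turns below 0 under 3 other scalings. A second background was the 4105 well-counted protein-coding genes, those averaging at least 50 counts. Of these 59.5% were lower in HOS, 16.7% by 2-fold or more, and 49.9% were higher and 50.1% lower in 143B, with medians of -0.00 in 143B and -0.21 in HOS. Counting intervals in HOS lay below 0 for 24 of the 26 genes (44.2% of those 4105). In 143B they lay above 0 for 9 genes (38.1%) and below 0 for 10 (40.5%).

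**Figure D1:**
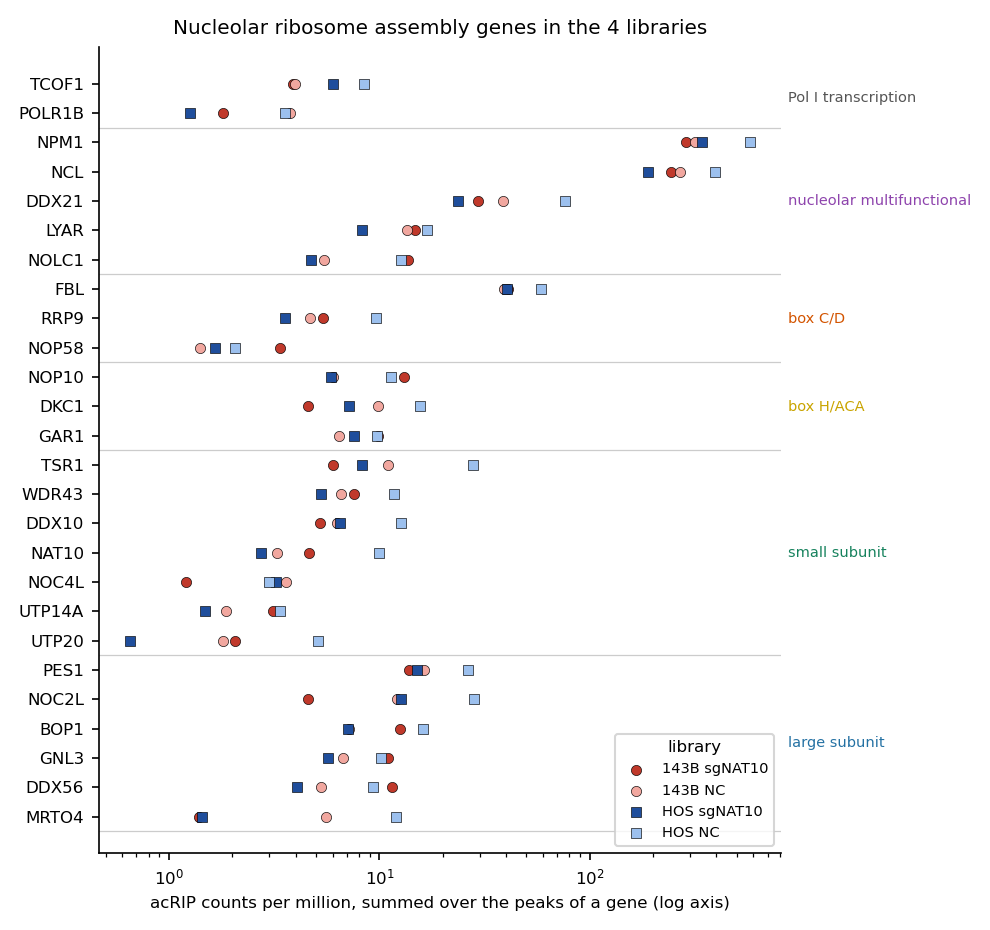
acRIP counts normalised to library size (CPM, log axis), summed over the peaks of each gene, in the 4 libraries (circles 143B, squares HOS, dark sgNAT10, light NC), with genes grouped by assembly step. The dark HOS squares lie left of the light ones for 25 of 26 genes, and the 143B circles lie either way.

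**Figure D2:**
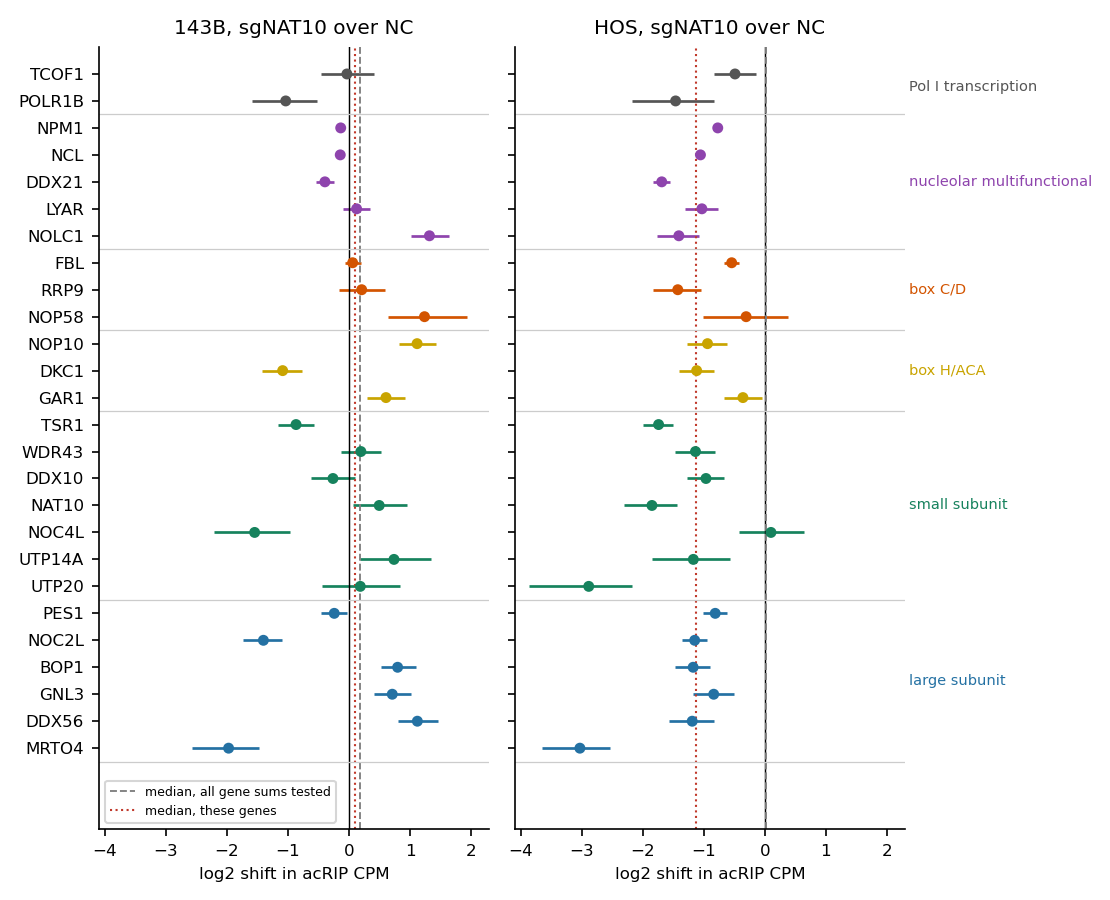
Log2 shift, sgNAT10 over NC, of each gene in 143B and HOS, with 95% intervals for counting error as bars. The dotted lines mark the medians of these genes (0.09 and -1.13) and the dashed lines those of all 8107 gene sums tested (0.18 and 0.03).

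No gene passed a test across the lines. The edgeR quasi-likelihood test, with cell line as a block, called 0 of 8107 gene sums at an adjusted p of 0.05 (0% called), with 278 at an unadjusted p under 0.05. DESeq2 called 0 (220 unadjusted) and limma-trend 0 (291). All 26 ribosome assembly genes were tested, with edgeR adjusted p-values of 0.988 to 1. The design leaves 1 residual degree of freedom, because the lines are the only repeats, so no difference below is shown to exceed the spread between replicates. How the lines differ from each other had no test either.

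The share of all counts in protein-coding genes needs no TMM factor, but amounts to scaling each library by its protein-coding total. By this share the 26 genes took 0.976% in 143B sgNAT10 and 0.735% in 143B NC, and 0.495% in HOS sgNAT10 and 0.955% in HOS NC. The 143B share was thus higher and the HOS share lower in the library labelled sgNAT10. The 95% Wilson intervals were 0.963% to 0.989% and 0.724% to 0.747% in 143B, and 0.488% to 0.503% and 0.943% to 0.967% in HOS. NPM1 and NCL held most of these counts, and without them the shares were 0.291% and 0.202% in 143B and 0.128% and 0.279% in HOS. Total counts in protein-coding genes were 3316608 in HOS sgNAT10 and 2595831 in HOS NC, and differed by less than 100 counts in 143B. With these totals as the scaling, 20 of the 26 genes were higher in 143B, against 14 with the TMM factors used.

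**Figure D3:**
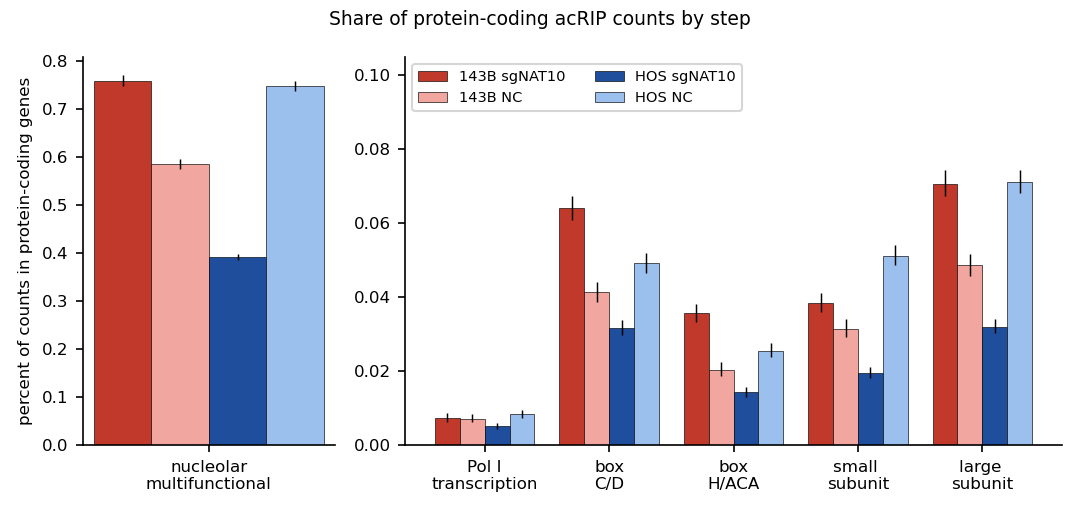
Percent of all protein-coding acRIP counts held by the genes of each assembly step in each library, with 95% Wilson intervals as error bars. The left panel has its own axis because NPM1 and NCL hold most of the counts, and in all 6 groups HOS sgNAT10 is the lowest bar.

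Of the 6 genes of Pol I transcription, 2 had an assigned peak. POLR1B, the second-largest Pol I subunit, had 51 counts in 143B sgNAT10 and 75 in 143B NC, and 29 in HOS sgNAT10 and 64 in HOS NC. It was lower in both lines, with shifts of -1.04 (-1.60 to -0.52) in 143B and -1.46 (-2.18 to -0.84) in HOS. TCOF1 encodes treacle, a nucleolar scaffold protein of Pol I transcription, and had 109 counts in 143B sgNAT10 and 79 in 143B NC, and 138 in HOS sgNAT10 and 152 in HOS NC. Its 143B interval spanned 0 (shift -0.03, -0.46 to 0.40), and its HOS shift was -0.49 (-0.83 to -0.15), which turns to 0.09 with library totals alone. No peak was assigned to POLR1A, POLR1C, UBTF or RRN3.

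The abundant multifunctional proteins of the nucleolus were lower in HOS without exception among the 5 with a peak, by a median of -1.05. NPM1, the histone and pre-ribosome chaperone nucleophosmin, had 8075 counts in 143B sgNAT10 and 6279 in 143B NC, and 7827 in HOS sgNAT10 and 10464 in HOS NC. NCL, nucleolin, an RNA-binding protein of early precursor processing, had 6806 in 143B sgNAT10 and 5320 in 143B NC, and 4355 in HOS sgNAT10 and 7088 in HOS NC. Per base of peak these were the most highly counted of the 26 genes in every library, with NPM1 at 7.11, 5.53, 6.896 and 9.22 counts per base in the same library order and NCL at 8.32, 6.50, 5.32 and 8.67. Their HOS shifts were -0.77 (-0.81 to -0.73) for NPM1 and -1.05 (-1.11 to -0.999) for NCL. In 143B both lay close to 0, at -0.13 and -0.14, and 3 of the 7 other scalings (upper quartile, library totals, protein-coding totals) put both above 0.

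DDX21, an RNA helicase that links Pol I transcription with precursor processing, had 823 counts in 143B sgNAT10 and 766 in 143B NC, and 542 in HOS sgNAT10 and 1371 in HOS NC. Its HOS shift of -1.69 (-1.84 to -1.55) was the lowest of this group, against -0.39 (-0.54 to -0.25) in 143B. LYAR, a nucleolar zinc finger protein of cell growth, had 416 counts in 143B sgNAT10 and 270 in 143B NC, and 190 in HOS sgNAT10 and 305 in HOS NC. Its shifts were 0.13 (-0.10 to 0.35) in 143B and -1.03 (-1.30 to -0.77) in HOS. NOLC1, a chaperone of box C/D and box H/ACA particles also called Nopp140, had 386 counts in 143B sgNAT10 and 109 in 143B NC, and 109 in HOS sgNAT10 and 228 in HOS NC. It was 2-fold or more higher in 143B (1.32, 1.02 to 1.65) and 2-fold or more lower in HOS (-1.41, -1.76 to -1.08). MYBBP1A had no peak.

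Among box C/D proteins the core methyltransferase fibrillarin, FBL, had 1146 counts in 143B sgNAT10 and 778 in 143B NC, and 932 in HOS sgNAT10 and 1064 in HOS NC. FBL shifted by 0.06 (-0.07 to 0.19) in 143B and by -0.54 (-0.67 to -0.41) in HOS, among the smaller shifts, and that in HOS turns to 0.04 with library totals alone. RRP9, a protein of the U3 particle needed for the first cuts of the precursor, had 152 counts in 143B sgNAT10 and 93 in 143B NC, and 82 in HOS sgNAT10 and 174 in HOS NC. It was lower in HOS (-1.43, -1.83 to -1.05) and its 143B interval spanned 0 (0.21, -0.17 to 0.60). The core protein NOP58 had 95 counts in 143B sgNAT10 and 28 in 143B NC, and 38 in HOS sgNAT10 and 37 in HOS NC. NOP58 was higher in 143B (1.24, 0.64 to 1.93), and its HOS interval spanned 0 (-0.31, -1.005 to 0.38). Its partner NOP56 had only a peak shared with the gene IDH3B.

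The box H/ACA proteins differed among themselves in 143B. DKC1, dyskerin, the pseudouridine synthase, had 129 counts in 143B sgNAT10 and 195 in 143B NC, and 166 in HOS sgNAT10 and 283 in HOS NC. It was 2-fold lower in both lines, at -1.09 (-1.43 to -0.77) and -1.12 (-1.41 to -0.84). The small core protein NOP10 had 369 counts in 143B sgNAT10 and 120 in 143B NC, and 136 in HOS sgNAT10 and 205 in HOS NC. GAR1, another core protein, had 276 counts in 143B sgNAT10 and 128 in 143B NC, and 174 in HOS sgNAT10 and 175 in HOS NC. NOP10 and GAR1 were higher in 143B (1.12, 0.82 to 1.43, and 0.61, 0.30 to 0.92) and lower in HOS (-0.94, -1.27 to -0.62, and -0.36, -0.67 to -0.05), where GAR1 turns to 0.22 with library totals alone. The peak of DKC1 was internal by the rule used, 512 bp from the 3′ end, and those of NOP10 and GAR1 lay within 500 bp of it. NHP2 had only a peak shared with the gene RMND5B.

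Of 15 small subunit genes 7 had a peak, NAT10 included, and 6 of them were lower in HOS. TSR1, a factor of late cytoplasmic maturation, had 169 counts in 143B sgNAT10 and 219 in 143B NC, and 191 in HOS sgNAT10 and 502 in HOS NC. Its shifts were -0.87 (-1.17 to -0.58) and -1.74 (-1.99 to -1.50), below 0 in both lines. WDR43, a subunit of the complex that binds the precursor first, had 212 counts in 143B sgNAT10 and 131 in 143B NC, and 122 in HOS sgNAT10 and 211 in HOS NC (shifts 0.20, -0.12 to 0.52, and -1.14, -1.48 to -0.81). The helicase gene DDX10 had 147 counts in 143B sgNAT10 and 125 in 143B NC, and 150 in HOS sgNAT10 and 230 in HOS NC (shifts -0.26, -0.62 to 0.09, and -0.96, -1.27 to -0.66). WDR43 and DDX10 thus had 143B intervals that spanned 0. Of DDX10, 2 of 4 peaks also overlapped the gene LOC124902750.

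The remaining small subunit genes had fewer than 100 counts in every library, and their values are given because 2 of them were the extremes of the step in HOS. UTP20, a scaffold of early assembly, had 58 counts in 143B sgNAT10 and 36 in 143B NC, and 15 in HOS sgNAT10 and 92 in HOS NC, a HOS shift of -2.88 (-3.86 to -2.17). NOC4L, a partner of NOP14, had 34 counts in 143B sgNAT10 and 72 in 143B NC, and 74 in HOS sgNAT10 and 54 in HOS NC. With the TMM factors used it was the only one of the 26 genes above 0 in HOS (0.10, -0.42 to 0.64), with an interval that spanned 0, and it was lower in 143B (-1.55, -2.21 to -0.97). UTP14A had 88 counts in 143B sgNAT10 and 37 in 143B NC, and 34 in HOS sgNAT10 and 61 in HOS NC, shifts of 0.74 (0.18 to 1.35) and -1.17 (-1.84 to -0.57), and its peak also overlapped LOC105373335. The genes NOP14, UTP4, UTP15, UTP18, WDR75, HEATR1, RRP12 and BYSL had no peak.

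All 6 large subunit genes with a peak were lower in HOS, by a median of -1.16. MRTO4, which holds the place of a stalk protein on the maturing large subunit, had 39 counts in 143B sgNAT10 and 111 in 143B NC, and 33 in HOS sgNAT10 and 217 in HOS NC. NOC2L, a factor of precursor transport, had 128 counts in 143B sgNAT10 and 241 in 143B NC, and 293 in HOS sgNAT10 and 510 in HOS NC. Both were 2-fold or more lower in both lines, MRTO4 by shifts of -1.97 (-2.57 to -1.47) and -3.03 (-3.64 to -2.54) and NOC2L by -1.40 (-1.73 to -1.10) and -1.15 (-1.36 to -0.94). The NOC2L peak lay 66 bp from the 5′ end of the gene and also overlapped LOC105379524. With POLR1B and DKC1 they made 4 of 26 genes that were 2-fold lower in both lines (background 1.59%, or 2.12% of well-counted protein-coding genes). With library totals alone, and with totals over protein-coding genes, only 1 of them, MRTO4, was 2-fold lower in both lines, and with upper quartile factors 2 were, MRTO4 and NOC2L. MRTO4 was the only one of the 26 genes with an unadjusted p under 0.05 in edgeR with the TMM factors used, against 278 of all 8107 gene sums tested. With DESeq2-type size factors and with TMM over all peaks POLR1B had one too, against 213 of 8152 and 310 of 8062 gene sums. The fitted log2 fold change of MRTO4 was -2.53 (SE 0.74), with an edgeR adjusted p of 0.988. DESeq2 gave it an adjusted p of 0.956 and limma-trend one of 0.971, and it was lower in both lines.

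BOP1 and PES1 belong to the PeBoW complex of large subunit processing, and their partner WDR12 had no peak. BOP1 had 352 counts in 143B sgNAT10 and 143 in 143B NC, and 164 in HOS sgNAT10 and 291 in HOS NC. PES1 had 387 counts in 143B sgNAT10 and 324 in 143B NC, and 347 in HOS sgNAT10 and 478 in HOS NC. Both were lower in HOS, at -1.17 (-1.46 to -0.90) and -0.81 (-1.02 to -0.61), but in 143B BOP1 was at 0.80 (0.52 to 1.09) and PES1 at -0.24 (-0.46 to -0.02), and PES1 turns to 0.10 with library totals alone. GNL3, the GTP-binding protein nucleostemin, had 308 counts in 143B sgNAT10 and 133 in 143B NC, and 131 in HOS sgNAT10 and 184 in HOS NC. The helicase DDX56 had 324 counts in 143B sgNAT10 and 105 in 143B NC, and 94 in HOS sgNAT10 and 169 in HOS NC. GNL3 and DDX56 were higher in 143B (0.71, 0.42 to 1.02, and 1.12, 0.81 to 1.46) and lower in HOS (-0.84, -1.18 to -0.51, and -1.19, -1.58 to -0.83). DDX56 and NOLC1 were the 2 of 26 genes that were 2-fold higher in 143B and 2-fold lower in HOS (background 3.13%, or 3.02% of well-counted protein-coding genes). With library totals alone 0 genes met this, with HOS shifts of -0.83 for NOLC1 and -0.61 for DDX56, and with TMM over all peaks only 1 did, NOLC1. Both genes rest on a single peak at a gene end, and protein-coding peaks at 3′ ends were mostly higher in 143B and lower in HOS. NOP2, RRS1, NOC3L and PPAN had no peak.

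In 143B the place of a peak in its gene went with its direction, for these genes as for protein-coding peaks in general. In HOS nearly all peaks of these genes were lower at any place. Among protein-coding peaks in general, those at 3′ ends were lower in HOS more often than internal ones. Strand was at hand for all but 4 of the 26 genes (BOP1, NOLC1, NOP58 and TCOF1). In 143B, 10 of 13 peaks within 500 bp of a 3′ end were higher, with a median shift of 0.61, and 7 of 28 internal peaks were higher, with a median of -0.52. Among protein-coding peaks averaging at least 50 counts, 85.6% of 887 at 3′ ends (median 0.81) and 26.1% of 5074 internal ones (median -0.89) were higher in that line. The exceptions at 3′ ends were MRTO4, DDX10 and PES1, which were lower in 143B. In HOS all 13 peaks at 3′ ends were lower (median -1.11, background 85.1% lower with a median of -0.69), and so were 27 of 28 internal peaks (median -1.02), where the background was 50.6% lower and 49.4% higher, with a median of -0.02. The part of peak position in the 143B shifts of these genes was not tested. The gene median in 143B was 0.71 from the 17 genes with a peak near an end and -0.39 from the 13 with a peak farther away, while in HOS it was -1.15 and -1.04.

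**Figure D4:**
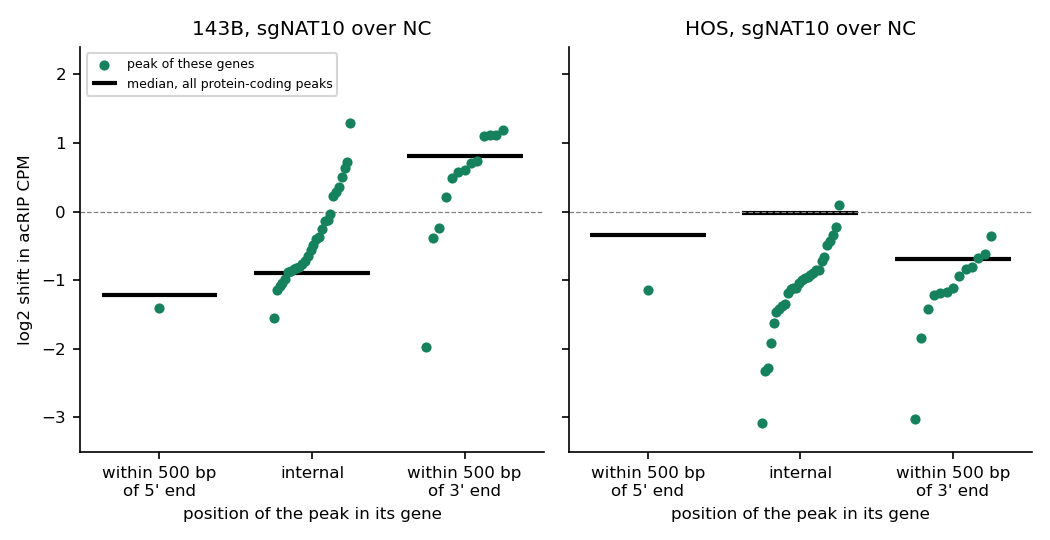
Log2 shift, sgNAT10 over NC, of single peaks of the ribosome assembly genes with known strand (points, sorted by value) by position in the gene, beside the median of all protein-coding peaks averaging at least 50 counts (black lines). Internal points in HOS lie mostly below their line at -0.02, and in 143B internal points and those at 3′ ends lie on both sides of their lines at -0.89 and 0.81.

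Genes with several peaks showed the same within 1 transcript. From the 5′ to the 3′ end, the 5 peaks of NPM1 shifted in 143B by -0.98, -0.39, -0.65, 0.29 and 0.58, and in HOS by -0.97, -0.89, -0.43, -0.85 and -0.61. Its last peak (chr5:171410550-171410835), 65 bp from the 3′ end, held 41.3% of NPM1 counts in 143B sgNAT10 and 25.1% in 143B NC, and 27.5% in HOS sgNAT10 and 24.6% in HOS NC. The 95% Wilson interval of the 143B sgNAT10 value, 40.2% to 42.4%, did not overlap those of the other libraries. The last peak of FBL held 35.95% of its counts in 143B sgNAT10 and 17.4% in 143B NC, and 15.99% in HOS sgNAT10 and 17.7% in HOS NC. WDR43 had 67.9% in 143B sgNAT10 and 33.6% in 143B NC, and 49.2% in HOS sgNAT10 and 52.1% in HOS NC. In 143B the end exceeded the rest in 3 of 4 ribosome assembly genes with peaks both at and away from the 3′ end. The same held in 281 of 298 protein-coding genes, and the medians were 1.21 and 1.37. For the 298 genes only peaks averaging at least 50 counts were used, while the 4 genes had no such limit. DDX10 was the exception, and its internal peaks had at most 38 counts in any library. In HOS the medians were -0.17 and 0.11. DDX21, whose last peak lay 1007 bp from the 3′ end, ran the other way in 143B, with 0.50, -0.80 and -0.76 from 5′ to 3′, against -1.34, -1.63 and -1.91 in HOS. NCL, with 4 peaks that lay farther than 500 bp from both ends, had a lowest shift of -0.37 and a highest of 0.23 in 143B, and -1.18 and -0.96 in HOS.

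**Figure D5:**
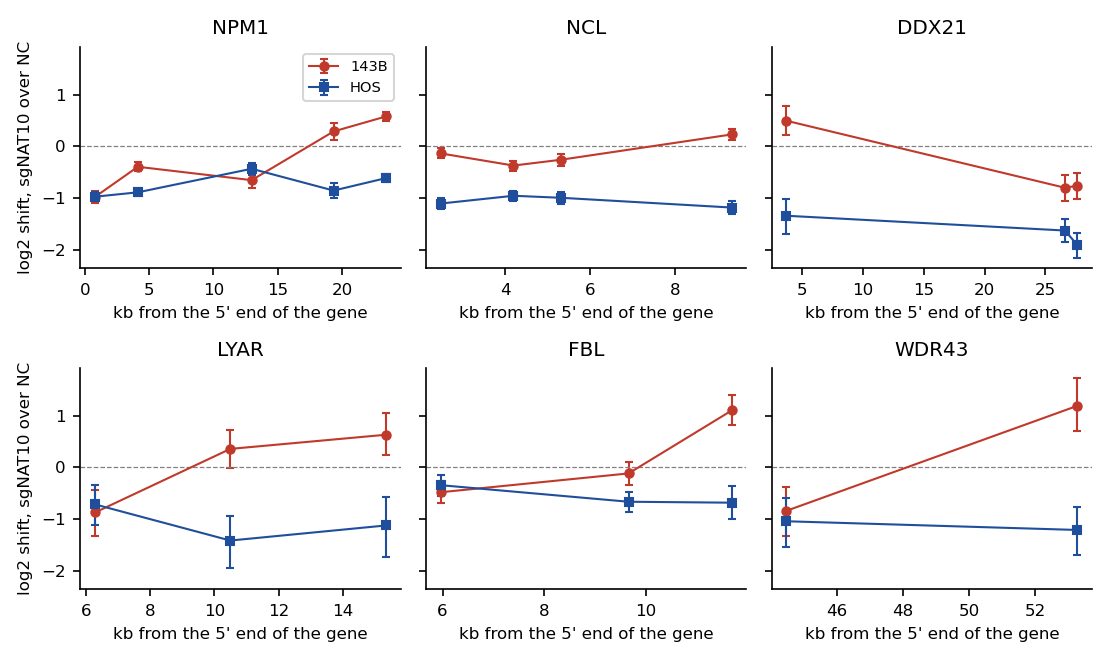
Log2 shift, sgNAT10 over NC, of each peak along 6 genes, by distance of the peak from the 5′ end of the gene in kb, with 95% intervals for counting error. In each gene but DDX21 the 143B line is higher at the last peak than at the first, while every HOS point lies below 0.

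Further ribosome assembly genes, from a list of 125 drawn up from general knowledge, were also mostly lower in HOS. In 143B most of them were higher, where the 26 genes above were split, and the lists were not tested against each other. The 143B direction of the 26 genes varied with scaling and with peak position. Neither was looked at for the further genes. Of these 46 had a peak. In HOS 42 of them were lower (median -0.78, background 48.9% and 0.03). In 143B 32 were higher (median 0.52, background 56.6% and 0.18). C1D, with 59 counts in 143B sgNAT10 and at most 5 in any other library, fell below the count filter of the edgeR test. Of the genes tested 0 passed. By 2-fold or more, 15 of the 46 were lower in HOS (background 13%) and 13 higher in 143B (background 21.1%). The 10 small subunit factors had the lowest HOS median of the lists (-1.19), followed by 5 genes of the exosome and its partners (-0.94), 19 large subunit factors (-0.81), 7 genes of guide RNA particles and their assembly (-0.49) and 5 of Pol I transcription (-0.39). EMG1, a methyltransferase of the small subunit, had 379 counts in 143B sgNAT10 and 232 in 143B NC, and 194 in HOS sgNAT10 and 470 in HOS NC (shifts 0.21 and -1.62). IMP3 of the U3 particle had 353 counts in 143B sgNAT10 and 150 in 143B NC, and 119 in HOS sgNAT10 and 203 in HOS NC (0.73 and -1.12).

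EIF6, which keeps the subunits apart, was at 1.38 in 143B and at -0.996 in HOS, and PELP1, of a complex that processes the large subunit precursor, -0.88 and -0.29. The helicase gene MTREX, which feeds RNA to the exosome, had -0.41 and -0.94, and XRN2, a nuclear exonuclease, 0.57 and -1.20. Those 2 enzymes of RNA trimming were lower in HOS by intervals below 0. RUVBL2, an ATPase that assembles box C/D particles, had 0.76 and -0.69, and NAF1, an assembly factor of box H/ACA particles, -1.88 and -0.31. CAVIN1, known as a caveola coat protein and a transcript release factor of Pol I, had 0.73 and -1.48, and POLR1D, a subunit shared by Pol I and Pol III, -0.15 and -0.32. SHQ1, a chaperone of dyskerin, was named after its values were seen as the single gene of this list that was 2-fold higher in HOS, with 34 counts in 143B sgNAT10 and 17 in 143B NC, and 117 in HOS sgNAT10 and 19 in HOS NC.

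Between the control libraries, 24 of the 26 ribosome assembly genes had higher CPM in HOS NC than in 143B NC, with a median log2 difference of 0.86. The background was 55.3% of gene sums tested (median 0.14) and 69.9% of protein-coding gene sums averaging at least 50 counts (median 0.55). NAT10 had the largest difference of the 26 (1.60), and POLR1B (-0.09) and NOC4L (-0.27) were the 2 below 0. With 1 library each the difference was not tested. HOS NC is also the control of every HOS shift above, so this difference and those shifts are not independent.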

How the data were processed

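The deposited tables hold raw read counts per peak interval, 1 table per cell line, with no normalization by the authors per the file headers. The column names give line and genotype and not the assay, and were taken as acRIP from the names of the tables. Per the submitters' processing notes, FastQC, STAR, SAMtools and deepTools were used with GRCh38. Not given in the sources used here were the peak caller, the counter, the strand setting and whether interval starts count from 0. Peaks were assigned to genes by overlap with RefSeq spans (GRCh38.p14), readthrough symbols set aside: 19102 peaks were assigned, 710 overlapped several genes and 11583 lay outside genes. Strand came from the RefSeq promoter table.

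Gene sums were tested with edgeR 4.0.16 (quasi-likelihood, filterByExpr with a minimum count of 10 and total of 15, Benjamini-Hochberg), with DESeq2 1.42.0 and limma 3.58.1 as alternatives. CPM used TMM factors (0.728 to 1.26) from the peaks passing the filter. The list of alternatives worded the scaling as TMM over all peaks. The factors from filtered peaks were taken in its place after the data were seen, to match the earlier processing of the series, and the median in 143B differs in sign between them. Shifts are differences of log2 CPM with a prior count of 1, and intervals are exact conditional binomial. Intervals cover counting error only, since PCR copies of a molecule are not told apart. The fit was tested on simulated data. Members, lists and steps were chosen with earlier results of these data known. By the rule for named genes every gene with a peak was named, with counts for NAT10, for those 2-fold different in both lines and for up to 4 of the most counted per step, and the 2 most counted of each other list were given with values. UTP20, NOC4L and UTP14A fall outside the rule for counts, and theirs were added after the values were seen. Alternatives were other scalings, filters, tests and choices of peaks.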

Additional observations from a re-analysis of the deposited data

Results flagged for a closer look

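NOLC1 and DDX56 were 2-fold or more higher in the 143B library labelled sgNAT10 and 2-fold or more lower in the HOS one, each relative to its NC library. The 143B shift minus the HOS shift was 2.73 for NOLC1 and 2.31 for DDX56 (log2). With 1 library per group the difference between lines was not tested. With library totals alone the HOS shifts were -0.83 for NOLC1 and -0.61 for DDX56, under 2-fold.

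Peaks that overlap 2 protein-coding genes were left out of the gene sums, and 3 of them lay in genes of this pathway that had no other peak. The peak shared by NOP56, a box C/D core protein, and IDH3B (chr20:2658034-2658577) had 1067 counts in 143B sgNAT10 and 351 in 143B NC, and 355 in HOS sgNAT10 and 561 in HOS NC, shifts of 1.10 in 143B and -1.01 in HOS. The peak shared by NHP2, a box H/ACA core protein, and RMND5B (chr5:178149490-178149724) had 954 counts in 143B sgNAT10 and 377 in 143B NC, and 351 in HOS sgNAT10 and 616 in HOS NC, shifts of 0.84 and -1.16. The peak shared by RRN3, a Pol I initiation factor, and PDXDC1 (chr16:15060051-15060165) had 88 counts in 143B sgNAT10 and 25 in 143B NC, and 42 in HOS sgNAT10 and 55 in HOS NC, shifts of 1.29 and -0.73. Counting intervals lay above 0 in 143B and below 0 in HOS for all 3 peaks, and the gene of origin cannot be told.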

How the results depend on the processing

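The HOS median of the 26 genes was -0.55 with library totals alone and lay between -1.40 and -1.04 under the other scalings and choices of peaks. With library totals alone 5 genes were 2-fold lower in HOS, against 16 to 21 under the other scalings. The 143B median depended on both choices. It was 0.44 with library totals alone, 0.59 with totals over protein-coding genes and -0.16 with TMM over all peaks without a filter, and 0.71 from peaks within 500 bp of a gene end and -0.39 from peaks farther away. The other settings gave 0.01 to 0.30. Genes 2-fold higher in 143B numbered 4 of 26 (background 21.1% of all gene sums tested), and 1 to 8 under other scalings. Those 2-fold lower in 143B numbered 5 (background 17.6%), and 2 to 6 under other scalings. Totals over protein-coding genes, TMM within each line and the addition of shared peaks were chosen after seeing the data. TMM over all peaks is the scaling as first worded, and the filtered-peak factors used here replaced it after the data were seen. Relative to the TMM factors used, the scalings add -0.25 to 0.50 to every 143B shift and -0.28 to 0.58 to every HOS shift.

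With library totals alone, signs turned for 4 genes in HOS, TCOF1 (0.09), FBL (0.039), GAR1 (0.22) and NOP58 (0.26), and for 5 in 143B, NPM1 (0.21), NCL (0.20), PES1 (0.10), TCOF1 (0.31) and DDX10 (0.08). With upper quartile factors 3 turned in 143B, NPM1 (0.075), NCL (0.068) and TCOF1 (0.175). With totals over protein-coding genes 6 did, NPM1 (0.36), NCL (0.355), DDX21 (0.10), PES1 (0.26), TCOF1 (0.46) and DDX10 (0.23). With TMM over all peaks 5 turned below 0 in 143B, LYAR (-0.13), FBL (-0.19), RRP9 (-0.04), WDR43 (-0.06) and UTP20 (-0.06). NOC4L turned below 0 in HOS with DESeq2-type size factors (-0.05), TMM without the rRNA block (-0.17) and TMM within each line (-0.17), and in 143B FBL (-0.03) turned with the first and TCOF1 (0.045) with the second of these. The cause was not tested.

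edgeR called 1 gene, none of those described here, among those averaging at least 50 counts, and 0 under every other setting run. The labels give no replicate numbers. Each line holds 1 library of each genotype, so cell line as a block pairs them, and without that block 0 genes were called (282 at an unadjusted p under 0.05).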

Other observations

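Small nucleolar RNAs, the guides of the particles that modify ribosomal RNA, are often encoded in introns of genes for nucleolar proteins. Of the 46 genes, 9 held such genes within their span, 27 in all, among them NCL, GNL3, DKC1, NOP58, TSR1 and WDR43. Peaks overlapped 0 of these 27, so the sums of these genes include no peak on those small nucleolar RNA genes. The further genes of the pathway were not checked for this.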
